A study of Mus musculus with 8 samples.

Results

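The 44 genes described here act in mitosis and at the entry into the cell cycle, and they were chosen by name: cyclins and their kinase partners, mitotic kinases, the spindle checkpoint, kinetochore proteins, spindle motors, the transcription factors that drive these genes, and 2 chromatin proteins of dividing cells. All 44 had probes on the array, 62 in total. Of these genes, 42 passed the filter on dim probes and were tested among 19281 genes, and all 42 were well above background on each of the 8 arrays. Aurkb and Ccne2 were well above background on 0 arrays and were not tested.

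The cells were macrophages cultured from the bone marrow of male C57BL/6J mice. Each of 4 mice gave a culture transfected with a control siRNA and another transfected with siRNAs that target the Y RNA terminal loop. The labels give the second treatment as siRNAs, in the plural, and it is called the Y RNA siRNA here. Each group held 4 one-colour Agilent arrays. All 8 samples were thus transfected cells of 1 strain and sex, with no untransfected or gene-deleted group. Y RNAs are small noncoding RNAs, and the series looked for targets of the short RNAs derived from them (s-RNYs). The sources used here do not give the siRNA sequences, the dose, the time after transfection or the age of the mice. The labels give 0.2 µg of RNA per sample, with an RNA integrity number of 10 for 7 samples and 8 for control mouse 4.

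Progress through the cell cycle is driven by cyclins, which switch on cyclin-dependent kinases: D and E cyclins at the entry into S phase, A and B cyclins with CDK1 in G2 and mitosis. E2F proteins activate genes of S phase, and FOXM1 and the MuvB complex activate those of mitosis, so that transcripts of this class rise and fall together as cells cycle. Bone marrow precursors divide in culture under the growth factor M-CSF while they become macrophages, and mature macrophages divide little.

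A level is the log2 signal of a gene's brightest probe minus the 75th percentile of its array, and a difference is the level with the Y RNA siRNA minus the level with the control siRNA. Array signals came from 8 arrays that correlated with one another at 0.989 to 0.997, and their number limits the precision. Macrophage markers (Csf1r, Adgre1, Cd68 and the rest of a list of 8) were well above background on all arrays. With 0 probes named for Rny1 or Rny3, the siRNA target itself was not measured here. In bulk samples such as these, a lower share of dividing cells and less RNA per cell cannot be told apart.

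Most of the genes were high on the same arrays and low on the same arrays, and both kinds of array occurred in both siRNA groups. The mean level of the 42 genes was 1.92, 2.43, 2.50 and 1.98 in control mice 1 to 4 and 2.21, 2.15, 2.56 and 2.12 with the Y RNA siRNA. Mouse 3 was high on both arrays and mouse 2 was high on its control array, while control mice 1 and 4 were lowest, so the groups overlapped. The mean was 2.21 ± 0.303 (SD, n = 4) in the control group and 2.26 ± 0.202 (SD, n = 4) in the Y RNA siRNA group. From the lowest to the highest array it spanned 0.639 log2 units, or 1.56-fold.

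Of the 42 genes, 28 were highest on the Y RNA siRNA array of mouse 3 and 8 on the control array of the same mouse. At the other end, 22 were lowest on the control array of mouse 1 and 13 on that of mouse 4. The array of control mouse 4 is the one with the lower RNA integrity number, and both arrays of mouse 1 had the lowest 75th percentile signals (9.04 each, against up to 9.34). The part of RNA quality and of signal strength in these levels was not tested.

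**Figure D1:**
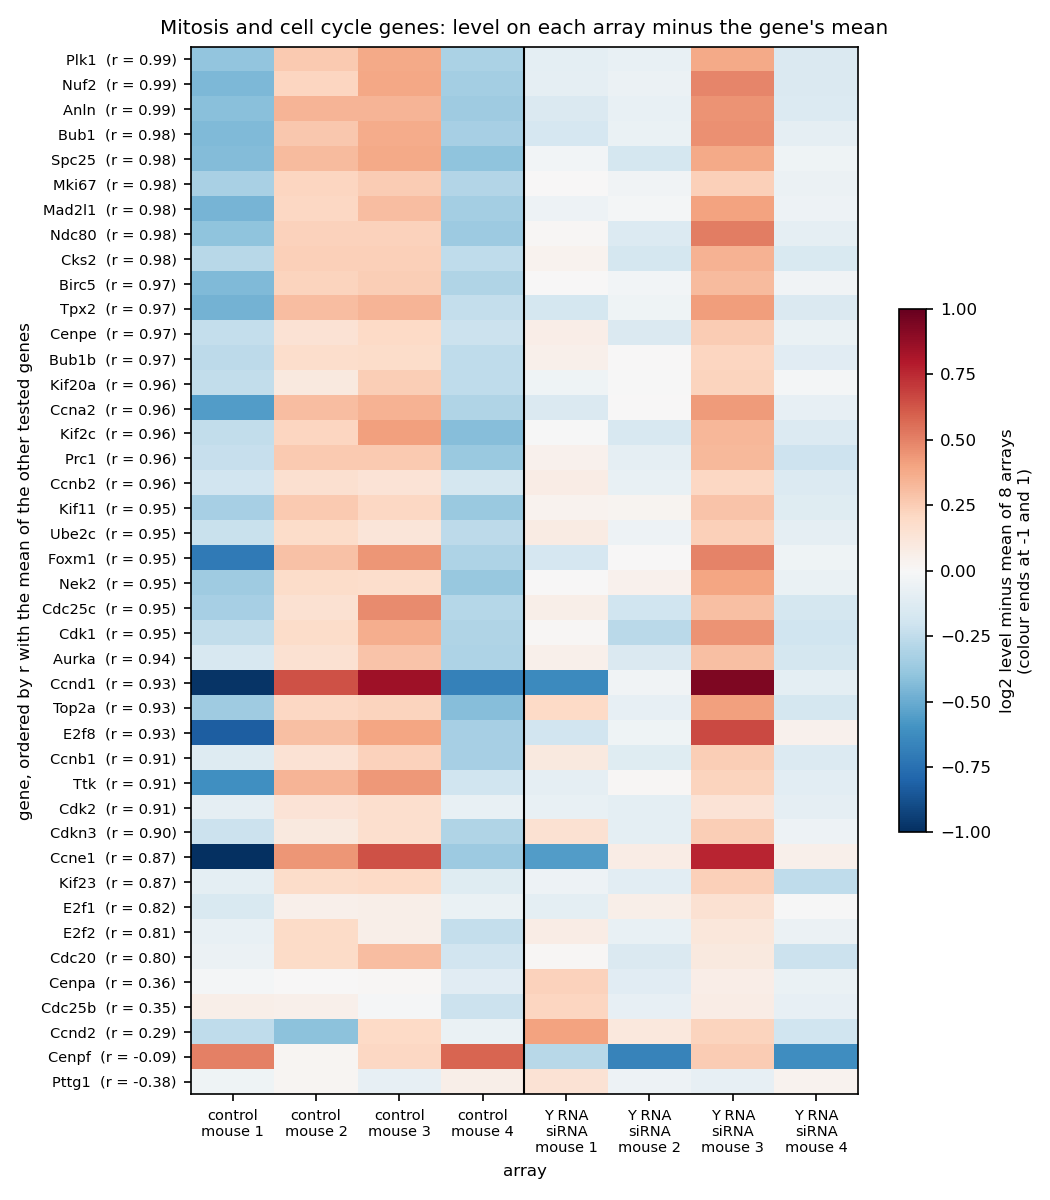
Level of each of the 42 tested genes (rows) on each of the 8 arrays (columns, control siRNA left of the line and Y RNA siRNA right), as log2 level minus the mean of that gene over the arrays, with rows ordered by Pearson's r with the mean of the other genes. Most rows share 1 pattern, low in control mice 1 and 4 and high in control mice 2 and 3 and in mouse 3 with the Y RNA siRNA, and the last 5 rows depart from it.

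No gene of the set was called for the siRNA. In limma with Benjamini-Hochberg adjustment over all genes, 0 of the 42 had an adjusted p under 0.05, beside 0% of the 19281 genes tested. Their adjusted p was 0.99998 in each case. This fit had no block for the mouse, and each ± SE below comes from it unless stated. At an unadjusted p under 0.05, 0 of the 42 were higher (1.61% of all genes) and 1 was lower (1.78% of all genes), which was Cenpf. With a fixed block for the mouse the same counts were 0 (4.7% of all genes) and 1 (4.57% of all genes), again Cenpf. With the mouse as a random block, 0 of the 42 passed, beside 0.0571% of all genes (11 genes). The 95% interval of the difference excluded a 2-fold change for 39 of the 42 (95.6% of all genes) and a 1.5-fold change for 31 (84.7% of all genes). Ccnd1, Ccne1 and Cenpf are the 3 for which 2-fold was not excluded in this fit without a block. With the mouse as a fixed block, 2-fold was excluded for 41 of the 42 (97.1% of all genes) and 1.5-fold for 38 (90.4% of all genes). The blocked interval was -0.48 to 0.65 for Ccnd1 and -0.25 to 0.57 for Ccne1, and for Cenpf it was -1.20 to -0.11, which still includes 2-fold.

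Groups that do not overlap, with every array of one above every array of the other, occurred in 0 of the 42 genes in either direction. Among all genes, 1.34% were higher without overlap and 1.09% lower. E2f1 was the 1 gene of the 42 that was higher in all 4 mice (10.4% of all genes), and 0 were lower in all 4 (8.87% of all genes).

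The difference was positive for 36 of the 42 genes, beside 52.3% of all genes, and its median was 0.06, beside 0.00453 over all genes. That count rested on single arrays. It was 18 without the Y RNA siRNA array of mouse 3, 17 without the control array of mouse 1, 18 without that of mouse 4 and 18 without both arrays of mouse 1. With limma's array weights, which were lowest for the 2 arrays of mouse 1 (0.369 and 0.491), it was 2 of 42 and the median was -0.12. The genes share their pattern over the arrays, so the 42 are not independent of one another.

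**Figure D2:**
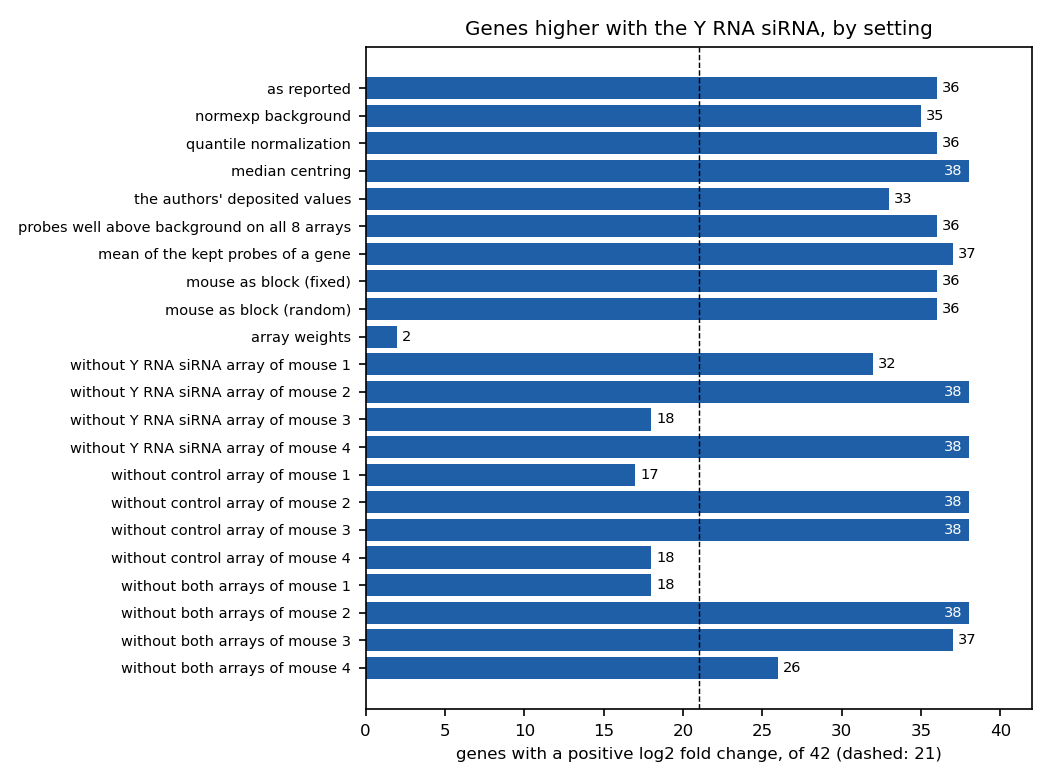
Number of the 42 genes with a positive siRNA difference (bar length) by setting of the processing and with each array or mouse left out. A dashed line lies at 21 genes. The setting with no filter on dim probes, which tested 44 genes of the set, is not shown. The count is 36 as reported, 17 or 18 without any of 3 single arrays, and 2 with array weights.

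**Figure D3:**
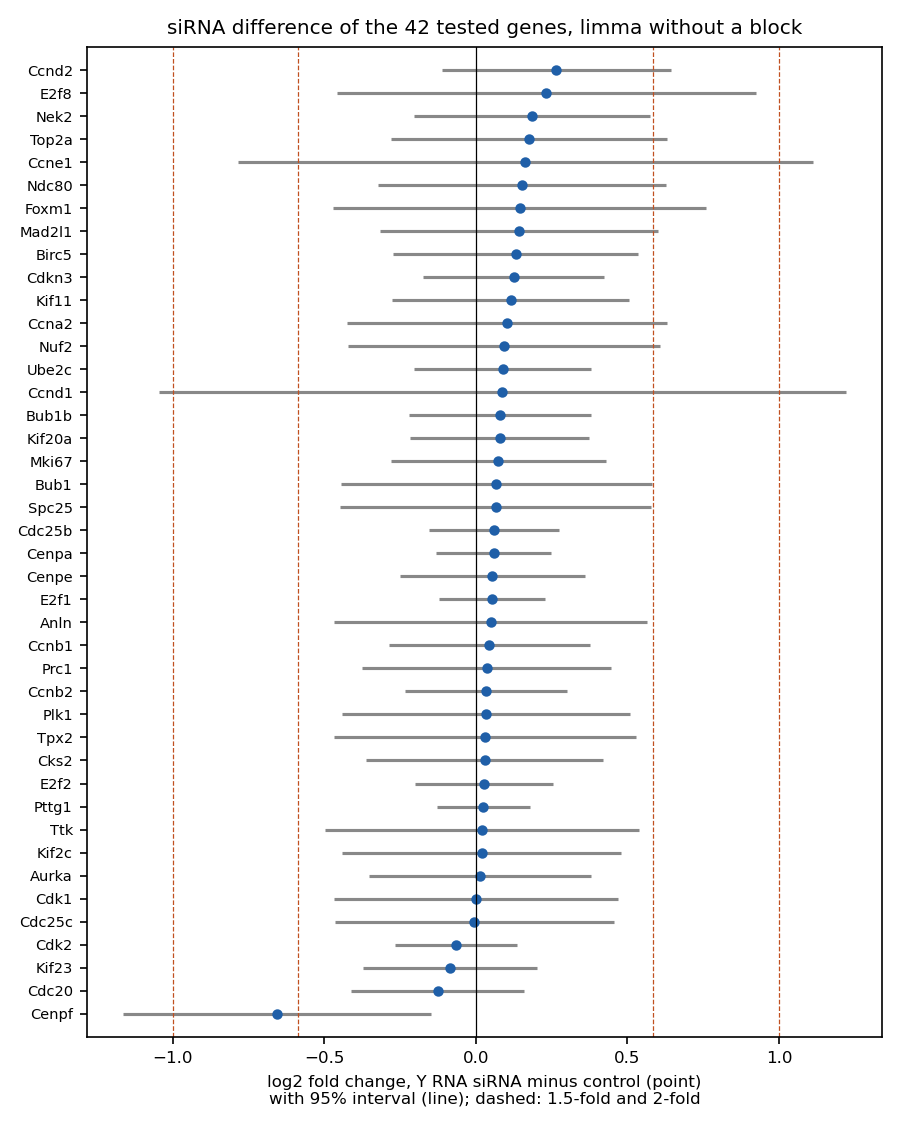
The siRNA difference of each of the 42 genes (points, log2) with its 95% interval from limma (lines), ordered by size, with dashed lines at 1.5-fold and 2-fold in each direction. Every interval but that of Cenpf includes 0, and those of Ccnd1 and Ccne1 are the widest.

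Within mice, the difference between the 2 cultures had opposite signs in mouse 1 and mouse 2. The mean difference was 0.29 in mouse 1, -0.28 in mouse 2, 0.05 in mouse 3 and 0.14 in mouse 4, which as folds are 1.22, 0.825, 1.04 and 1.11. In mouse 1, 41 of the 42 genes were higher with the Y RNA siRNA (56.3% of all genes), and in mouse 2, 40 of the 42 were lower (48.6% of all genes). Mouse 3 had 34 higher (55.2% of all genes) and mouse 4 had 36 higher (44.6% of all genes).

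Higher in mice 1, 3 and 4 and lower in mouse 2 was the order of 29 of the 42 genes, beside 8.86% of all genes. Each mouse has 1 array per condition, so the difference within 1 mouse has no replicate and was not tested. For mouse 2 the pairing of its arrays rests on the labels, since its control array correlated more with a Y RNA siRNA array of another mouse than with its own (0.206 against 0.155 over all genes). The median SD of the 4 mouse differences was 0.273 over the 42 genes and 0.119 over all genes.

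**Figure D4:**
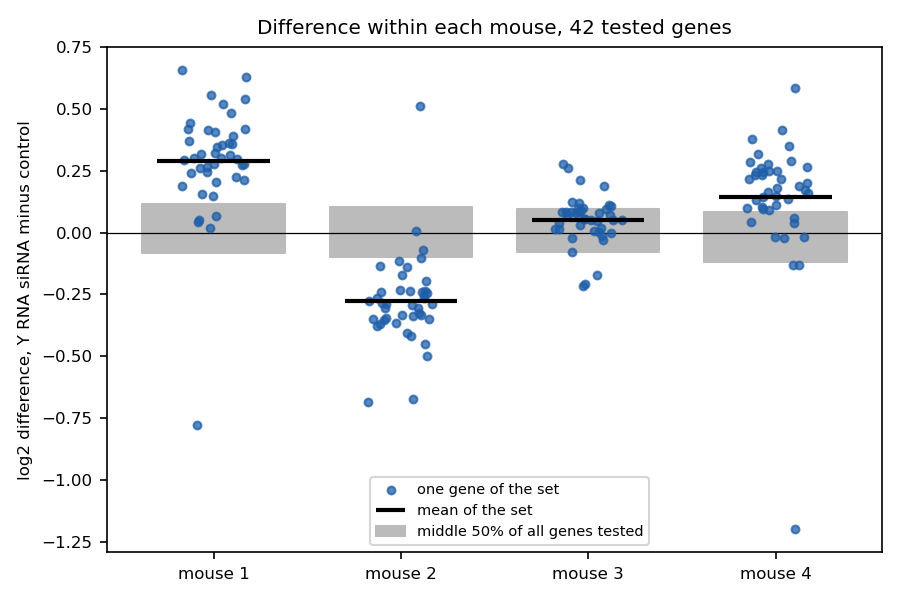
The difference between Y RNA siRNA and control within each mouse (vertical axis, log2) for each of the 42 genes (points), with their mean (bar) and the span from the lower to the upper quartile of all genes tested (grey). The points lie almost all above 0 in mouse 1 and almost all below 0 in mouse 2, with means of 0.29 and -0.28.

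Among the regulators of S phase entry, Ccnd1 and Ccne1 had the widest ranges of the 42 genes over the arrays, while Ccnd2 spanned 1.76-fold and Cdk2 1.2-fold. Ccnd1 encodes cyclin D1, which links growth factor signals to the cycle, and measured 2.06, 3.68, 3.88 and 2.36 in control mice 1 to 4 and 2.40, 3.01, 3.97 and 2.94 with the Y RNA siRNA. Control mice 1 and 4 and Y RNA siRNA mouse 1 were low and mouse 3 was high in both siRNA groups, so the groups overlapped. Its range was 1.92 log2 units, a 3.78-fold span, while its siRNA difference was 0.09 ± 0.49 (SE). Ccne1, or cyclin E1, the partner of CDK2, measured 0.96, 2.44, 2.64 and 1.64 in control mice and 1.44, 2.07, 2.76 and 2.05 with the Y RNA siRNA. The same arrays were low and high as for Ccnd1, with Y RNA siRNA mouse 1 under control mouse 4. The span was 3.5-fold and the difference 0.16 ± 0.41 (SE).

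Ccnd2, which encodes cyclin D2, measured -3.28, -3.43, -2.82 and -3.09 in control mice 1 to 4 and -2.62, -2.92, -2.80 and -3.22 with the Y RNA siRNA. Its signals were dim and highest on the Y RNA siRNA array of mouse 1, an order unlike that of the other D cyclin, and the groups overlapped. At 0.26 ± 0.16 (SE) it had the most positive difference of the set. With the normexp background correction this difference was 0.13, and 0.16 in the authors' deposited values. Both were under those of E2f8 (0.23 and 0.26). Cdk2, the kinase of cyclins E and A, measured 0.56, 0.79, 0.82 and 0.58 in control mice and 0.58, 0.56, 0.79 and 0.56 with the Y RNA siRNA. Control mice 2 and 3 and Y RNA siRNA mouse 3 were high and the other 5 arrays lay close together, with a difference of -0.07 ± 0.09 (SE).

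Ccne2, or cyclin E2, measured -6.80, -7.01, -6.95 and -6.88 in control mice and -6.75, -6.91, -6.85 and -6.88 with the Y RNA siRNA. On every array this was under the lowest signal of any probe well above background, which lay between -4.69 and -4.44. It therefore has no measured fold.

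Of the mitotic cyclins, CDK1 and its regulators, 8 genes were tested, and 6 of them had positive differences, of at most 0.12. Ccna2 encodes cyclin A2, which acts in S phase and G2, and measured 3.39, 4.27, 4.30 and 3.66 in control mice 1 to 4 and 3.81, 3.96, 4.38 and 3.87 with the Y RNA siRNA. Ccnb1, or cyclin B1, the mitotic partner of CDK1, measured 3.01, 3.29, 3.37 and 2.81 in control mice and 3.24, 3.02, 3.39 and 3.01 with the Y RNA siRNA. Cdk1, the kinase that drives entry into mitosis, measured 0.44, 0.87, 1.05 and 0.39 in control mice and 0.70, 0.42, 1.14 and 0.49 with the Y RNA siRNA. All 3 were high in mouse 3 and low in control mice 1 and 4, and their groups overlapped. Ccnb1 was about as low on Y RNA siRNA mice 2 and 4 as on control mouse 1. Cdk1 was as low on Y RNA siRNA mouse 2.

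The difference of Cdk1 was -0.00031 ± 0.20 (SE), made of 0.26 in mouse 1, -0.45 in mouse 2, 0.09 in mouse 3 and 0.10 in mouse 4. Cdkn3, a phosphatase that acts on cyclin-dependent kinases, measured 1.74, 2.06, 2.13 and 1.66 in control mice and 2.12, 1.86, 2.21 and 1.91 with the Y RNA siRNA. Cdc25b, a phosphatase that activates CDK1, measured 3.25, 3.24, 3.18 and 2.97 in control mice and 3.41, 3.11, 3.27 and 3.11 with the Y RNA siRNA. Cdkn3 followed the shared pattern, whereas Cdc25b was lowest on control mouse 4 alone and highest on Y RNA siRNA mouse 1. Ccnb2, Cks2 and Cdc25c lay between 1.32-fold and 1.75-fold in span and all had r of at least 0.9 with the mean of the other genes.

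All 6 tested mitotic kinases had positive differences, from 0.01 to 0.19, and none was called. Nek2, a kinase of centrosome separation, measured 0.63, 1.17, 1.17 and 0.61 in control mice 1 to 4 and 0.99, 1.03, 1.38 and 0.93 with the Y RNA siRNA. Bub1, a checkpoint kinase at the kinetochore, measured 0.85, 1.56, 1.67 and 0.96 in control mice and 1.13, 1.23, 1.75 and 1.21 with the Y RNA siRNA. Bub1b, which encodes the checkpoint protein BUBR1, measured 1.25, 1.69, 1.70 and 1.26 in control mice and 1.57, 1.52, 1.73 and 1.41 with the Y RNA siRNA. Each was low in control mice 1 and 4, with overlapping groups.

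The difference of Nek2 was 0.19 ± 0.17 (SE). Plk1, the polo-like kinase of mitotic entry and exit, had the highest r of the set with the mean of the others (0.994) and ranged from 3.52 to 4.29. Ttk, the checkpoint kinase also called MPS1, was lowest at -2.62 in control mouse 1 and highest at -1.58 in control mouse 3. Aurka, the centrosomal Aurora kinase, had a range of 0.610 log2 units.

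Aurkb, the Aurora kinase of the chromosomal passenger complex, gave only background: -6.50, -6.77, -6.59 and -6.62 in control mice and -6.48, -6.63, -6.54 and -6.63 with the Y RNA siRNA. As for Ccne2, this was under the lowest signal of any probe well above background on each array, so it has no measured fold.

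Of the 7 kinetochore and centromere genes, 6 had a positive difference and none was called. Birc5, or survivin, a partner of Aurora B in the passenger complex, measured 5.22, 5.88, 5.90 and 5.36 in control mice 1 to 4 and 5.66, 5.63, 5.98 and 5.62 with the Y RNA siRNA. Ndc80, a kinetochore protein that binds microtubules, measured 0.66, 1.30, 1.30 and 0.70 in control mice and 1.08, 0.94, 1.58 and 0.98 with the Y RNA siRNA. In both, mouse 3 was highest with the Y RNA siRNA and control mice 1 and 4 were lowest. Their differences were 0.13 ± 0.18 (SE) and 0.15 ± 0.21 (SE), and the groups overlapped. Nuf2 and Spc25, further subunits of the NDC80 complex, had r of 0.992 and 0.982 with the mean of the other genes.

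Cenpf, which encodes a large kinetochore protein of G2 and mitosis, measured -2.76, -3.24, -3.06 and -2.68 in control mice 1 to 4 and -3.54, -3.93, -3.01 and -3.88 with the Y RNA siRNA. It was lower with the Y RNA siRNA in mice 1, 2 and 4 and nearly equal in mouse 3, and that array kept the groups overlapping. The difference was -0.65 ± 0.22 (SE, 95% interval -1.16 to -0.15), with an unadjusted p of 0.0178 and an adjusted p of 0.99998 by limma. A fixed block for the mouse gave an adjusted p of 0.471 and a random block 0.294. Its probe was dim, and with the normexp background correction the difference was -0.23, and -0.28 in the authors' deposited values. Its r with the mean of the other genes was -0.09, so it did not share their pattern over the arrays. Cenpe, a motor at the kinetochore, did (r = 0.968), and Cenpa, the centromeric histone, did less (r = 0.360).

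Of the 4 genes around the spindle checkpoint and the anaphase-promoting complex, none was called. Cdc20, the activator of that ubiquitin ligase, measured 3.94, 4.19, 4.31 and 3.81 in control mice 1 to 4 and 4.01, 3.86, 4.09 and 3.79 with the Y RNA siRNA. Its difference was -0.13 ± 0.12 (SE), with mouse 1 alone above 0. Mad2l1, the checkpoint inhibitor of CDC20, measured 2.95, 3.63, 3.73 and 3.08 in control mice and 3.37, 3.40, 3.83 and 3.37 with the Y RNA siRNA. Ube2c, the ubiquitin-conjugating enzyme of the complex, measured 4.02, 4.43, 4.36 and 3.98 in control mice and 4.32, 4.19, 4.48 and 4.15 with the Y RNA siRNA. Both were high on Y RNA siRNA mouse 3 and low in control mice 1 and 4, and the groups overlapped in all of these genes.

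Pttg1, which encodes securin, an inhibitor of sister chromatid separation until anaphase, was the steadiest gene of the set. Its level lay between 4.63 and 4.86 on the 8 arrays, a 1.17-fold span. Its r with the mean of the other genes was -0.38 over 8 arrays.

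The spindle and cytokinesis genes had differences between -0.08 and 0.12. Kif11, the motor that separates the spindle poles, measured 0.07, 0.66, 0.60 and 0.03 in control mice 1 to 4 and 0.43, 0.43, 0.69 and 0.28 with the Y RNA siRNA. Kif20a, a motor of cytokinesis, measured 3.44, 3.78, 3.93 and 3.44 in control mice and 3.64, 3.68, 3.91 and 3.67 with the Y RNA siRNA. Kif23, the kinesin of the central spindle, measured 1.41, 1.69, 1.71 and 1.38 in control mice and 1.46, 1.40, 1.75 and 1.25 with the Y RNA siRNA. Kif11 and Kif20a were lowest in control mice 1 and 4, whereas Kif23 was lowest on Y RNA siRNA mouse 4, and the groups of all 3 overlapped. Anln, a scaffold of the contractile ring, Prc1, which bundles the central spindle, Tpx2, an activator of Aurora A, and Kif2c, a microtubule depolymerase, had r of 0.987, 0.959, 0.969 and 0.959 with the mean of the other genes.

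The transcription factors of the set all had positive differences, from 0.03 to 0.23, and none was called. E2f8, a repressor of the E2F family that is itself made in S phase, measured 0.68, 1.80, 1.89 and 1.17 in control mice 1 to 4 and 1.31, 1.46, 2.16 and 1.55 with the Y RNA siRNA. Foxm1, an activator of G2 and mitotic genes, measured 0.75, 1.75, 1.90 and 1.15 in control mice and 1.29, 1.46, 1.95 and 1.41 with the Y RNA siRNA. Both followed the shared pattern with wide spans of 2.79-fold and 2.30-fold. Their differences of 0.23 ± 0.30 (SE) and 0.14 ± 0.27 (SE) were smaller than their standard errors.

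E2f1 and E2f2, activators of S phase genes, had narrow spans over the arrays, 1.24-fold and 1.35-fold. E2f1 measured 2.62, 2.82, 2.83 and 2.70 in control mice and 2.67, 2.83, 2.92 and 2.76 with the Y RNA siRNA. Each mouse was slightly higher with the Y RNA siRNA, by 0.05, 0.01, 0.10 and 0.06, and the mean difference was 0.05 ± 0.08 (SE). Its adjusted p was 0.707 when the mouse was a fixed block. E2f2 measured 2.84, 3.11, 2.98 and 2.68 in control mice and 2.99, 2.84, 3.03 and 2.86 with the Y RNA siRNA, with overlapping groups.

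Mki67, the proliferation antigen Ki-67, which coats mitotic chromosomes, measured 5.13, 5.66, 5.70 and 5.15 in control mice 1 to 4 and 5.45, 5.42, 5.69 and 5.39 with the Y RNA siRNA. Top2a, the topoisomerase that untangles sister chromatids, measured 2.21, 2.78, 2.79 and 2.14 in control mice and 2.77, 2.49, 2.98 and 2.39 with the Y RNA siRNA. Control mice 1 and 4 were lowest for both, and the levels with the Y RNA siRNA lay inside the control range except that of Top2a in mouse 3. The differences were 0.07 ± 0.15 (SE) and 0.18 ± 0.20 (SE).

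Different probes of a gene mostly gave the same pattern. Over the 11 genes with several kept probes, the 3 probes of Birc5 gave siRNA differences of 0.13, 0.13 and 0.12, and the 2 of Mki67 gave 0.07 and 0.08. The second probe of Cdk1, with a dim level of -3.96, departed with a difference of 0.21 and an r of 0.463 with the mean of the set, against 0.949 for the first. Both probes of Pttg1 ran against the set, at -0.371 and -0.882. In these probe values the mean includes the gene itself.

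Of the 42 genes, 37 had a mean level above the 75th percentile of the array, beside 55.5% of all genes tested, and the median level was 2.67 beside 0.584. Probes differ in how well they bind, so these signals do not order the genes by abundance.

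Pearson's r over the 8 arrays averaged 0.714 over the 861 pairs of the 42 genes, and 91.4% of these pairs were positive. Over all pairs of tested genes the mean was 0.00839. These are descriptions over 8 points that share RNA, array and scaling, and the 2 arrays of a mouse share the animal. The mean pairwise r was 0.740 after the mouse means were subtracted and 0.734 after the group means were subtracted. Without mouse 3, whose arrays lie farthest from the median, it was 0.651.

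Against the mean of the other 41 genes, 32 of the 42 had r of at least 0.9, beside 3.32% of all genes tested. Plk1, Nuf2 and Anln came first. The exceptions under 0.5 were Cdc25b (0.355), Cenpa (0.360), Ccnd2 (0.291), Cenpf (-0.09) and Pttg1 (-0.377). Of these 5, Cenpf and Ccnd2 had dim probes, at mean levels of -3.26 and -3.02, while Cdc25b, Cenpa and Pttg1 spanned at most 1.35-fold over the arrays. These traits were not particular to the 5. Cdk2 spanned 1.2-fold with r of 0.905 and Ccnb2 1.32-fold with 0.957, and Ttk, at a mean level of -2.01, had 0.907. The reason for the exceptions was not tested.

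**Figure D5:**
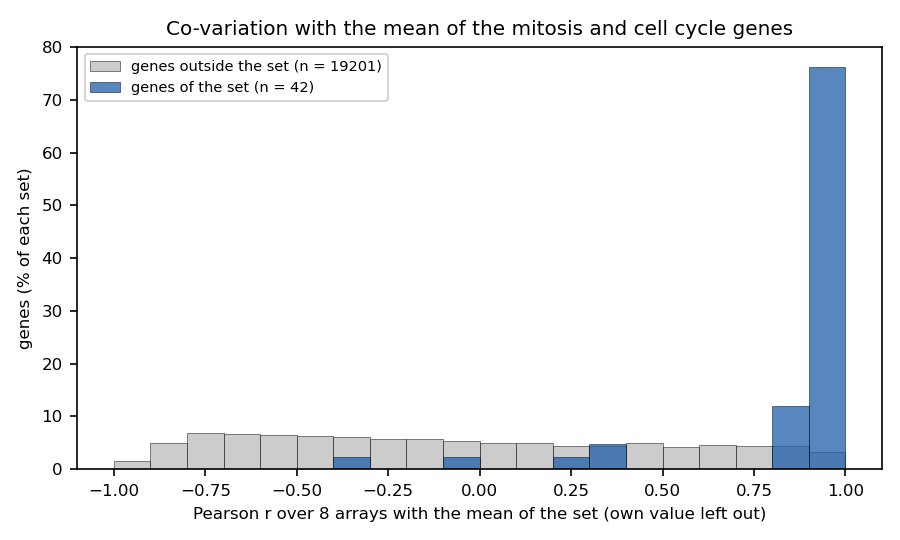
Share of genes (vertical axis, percent of each set) by Pearson's r over the 8 arrays with the mean of the set (horizontal axis, own value left out for its members), for the 42 genes and for 19201 genes outside the set. Of the set, 76.2% lie at 0.9 or above, while the genes outside spread over the whole range with a median of -0.10.

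The median SD over 8 arrays was 0.266 for the 42 genes and 0.139 for all genes. Within the control group the median SD of the set was 0.321 and within the Y RNA siRNA group 0.222, beside 0.137 and 0.124 for all genes. Whether the 2 groups differ in spread was not tested.

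In a model with the siRNA group and the mouse, limma's F test for the mouse called 0 of the 42 genes, beside 4.67% of all genes (901). At an unadjusted p under 0.05 the shares were 15 of 42 and 29.7% of all genes. Ccne1 had the smallest p of the set for the mouse (0.00572, adjusted 0.0712), followed by Ccnd1 (0.0115, adjusted 0.0943). The call of 0 depended on the settings. It was 7 of 42 with normexp (17.2% of all genes), 1 of 42 in the authors' deposited values (9.63% of all genes) and 10 of 42 without mouse 2 (6.30% of all genes).

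Among 13200 other genes with a symbol and complete values, those most like the mean of the set over the 8 arrays were Hmmr (r = 0.997), Racgap1 (0.995), Tipin (0.995), Snrpd1 (0.992), Cdca8 (0.991), Ccnf (0.991), Cenpi (0.991) and Tubb4b (0.990). Hmmr encodes a spindle protein, Racgap1 a regulator of cytokinesis, Tipin a replication fork protein, Cdca8 a passenger complex subunit, Ccnf cyclin F and Cenpi a centromere protein. Snrpd1 encodes a core splicing protein and Tubb4b a beta-tubulin. Their siRNA differences lay between 0.03 and 0.11. Furthest in the other direction were Pramel12 (-0.988), Klk1b24 (-0.976), Ubtf (-0.974) and Gab1 (-0.972), of which Ubtf encodes a factor of ribosomal RNA transcription and Gab1 a signalling adaptor.

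Other genes of the same processes were read from 6 further lists. Of 51 other mitotic genes, 47 had a positive difference with a median of 0.10, and 0 were called. Their mean within-mouse differences were 0.34, -0.25, 0.08 and 0.22 for mice 1 to 4 and their median r with the mean of the set was 0.956. Zwint, a kinetochore scaffold, had the smallest p of that list at 0.0109 (adjusted p 0.99998 by limma). Its difference of 0.21 ± 0.06 (SE) was positive in all 4 mice, and its groups did not overlap, as for 1.34% of all genes in that direction. Its r with the set was 0.143. Kif14, a kinesin of cytokinesis, and Mastl, the Greatwall kinase, followed at 0.36 ± 0.18 (SE) and 0.28 ± 0.20 (SE).

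Condensin and cohesin genes had 10 of 17 positive and a median r of 0.842. Within that list Ncaph, a condensin I subunit, had r of 0.976, whereas Ncapg2 of condensin II and the cohesin loader Nipbl had -0.832 and -0.812. Smc3 and Esco2, a cohesin subunit and a cohesin acetyltransferase, had differences of 0.09 ± 0.07 (SE) and 0.27 ± 0.27 (SE), and Ncaph had 0.17 ± 0.18 (SE). The list of the anaphase-promoting complex, which held its subunits, its activator Fzr1 and the ubiquitin-conjugating enzyme Ube2s, had 7 of 14 positive and a median r of 0.557. The smallest p values there belonged to Anapc2 at -0.05 ± 0.04 (SE), Anapc10 at -0.18 ± 0.23 (SE) and Anapc4 at 0.03 ± 0.04 (SE).

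A list of other cyclins, cyclin-dependent kinases and regulators such as Wee1, Cdc25a and Skp2 had 12 of 19 positive and a median r of 0.224. Many of its cyclins and kinases are tied to transcription or to other tasks. Pkmyt1 and Cks1b, both regulators of CDK1 or CDK2, had r of 0.972 and 0.960, while Cdk9, the kinase of transcription elongation, had -0.869. The smallest p values belonged to Ccnh at -0.11 ± 0.06 (SE), Cks1b at 0.18 ± 0.18 (SE) and Cdk5 at 0.07 ± 0.07 (SE). None of these lists held a gene called for the siRNA.

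Of 7 CDK inhibitors, 5 had a positive difference and 0 were called. Cdkn2a, the locus of p16 and p19ARF, measured -1.97, -1.85, -1.81 and -2.19 in control mice 1 to 4 and -1.57, -1.65, -1.71 and -1.70 with the Y RNA siRNA. All 4 arrays with the Y RNA siRNA lay above all 4 control arrays, as for 1.34% of all genes, at a difference of 0.30 ± 0.09 (SE). The unadjusted p was 0.0101 and the adjusted p 0.99998 by limma, or 0.222 with the mouse as a random block. Cdkn2d, which encodes p19INK4d, had r of 0.984 with the set, whereas Cdkn1b, which encodes p27, had -0.769. Cdkn1c, or p57, was called for the mouse (adjusted p 0.0054), at 1.15 and 0.83 in mouse 1 and 2.91 and 2.87 in mouse 3 for control and Y RNA siRNA.

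Pocket proteins, DREAM subunits and other E2F genes had 10 of 16 positive, a median r of 0.728 and 0 called. E2f5, E2f6 and Rbbp4 had the smallest p values, with differences of 0.15 ± 0.10 (SE), 0.11 ± 0.09 (SE) and -0.09 ± 0.08 (SE). Tfdp1, the dimer partner of E2F proteins, had r of 0.954 with the set, and Rb1, the retinoblastoma protein, -0.810.

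Markers of other cells were read beside the pattern. Of 9 myeloid progenitor markers, 5 were well above background on all 8 arrays and Prtn3 on none. Their summed linear signal, relative to the 75th percentile, ranged from 4.24 to 5.62 in the control group and from 4.95 to 5.93 with the Y RNA siRNA. Elane was the brightest of these markers, at levels of 1.68 to 2.04, and made up most of that sum. Kit, the stem cell factor receptor, measured -2.86, -1.86, -1.03 and -1.72 in control mice 1 to 4 and -2.84, -1.86, -0.81 and -1.46 with the Y RNA siRNA. Like most of the cell cycle genes it was highest in mouse 3. Both arrays of mouse 1 were low for Kit, as for Ccnd1 and Ccne1 but not for the mean of the set. The r of Kit with the set was 0.656.

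Over the 6 tested progenitor markers, r with the set had a median of 0.582, from -0.199 for Cebpe to 0.756 for Ctsg. Over the 4 tested neutrophil markers the median was 0.0914, from -0.497 for Mmp8 to 0.804 for S100a8. Of 9 neutrophil markers 4 were well above background on all arrays and 4 on none, among them Ly6g, and the summed signal was 2.80 to 3.42 in the control group and 3.06 to 3.86 with the Y RNA siRNA. The macrophage markers summed to 1390 to 1630 and 1370 to 1630. Their r with the set was negative for all 8, with a median of -0.559 and Cd14 nearest to 0 at -0.0696. Csf1r, the receptor of M-CSF, Adgre1, or F4/80, and Fcgr1 were lowest, with r of -0.868, -0.838 and -0.803. Of 5 megakaryocyte markers, 3 were well above background on no array, and Ppbp, which was dim, on 5 arrays. Over the 2 tested megakaryocyte markers, Ppbp and Pf4, the median r was 0.718, above that of the progenitor markers. It was 0.343 over 5 fibroblast markers, 0.225 over 2 dendritic cell markers and -0.391 over 3 lymphocyte markers. The 1 tested erythroid marker had -0.538. The part of other cells in the pattern was not tested.

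Because most of these genes varied together, their promoters were read for elements known from cell cycle genes, and the 7 below show windows with and without them. The CHR (cell cycle genes homology region, searched as TTTGAA or TTCGAA) is an element bound by MuvB complexes, CCAAT is the box bound by NF-Y, and E2F sites were searched as TTTCGCGC, TTTGGCGC, TTTCCCGC or TTTGCCGC. Sequences are from RefSeq (GRCm38.p6), which held 37 promoters of 35 of the genes. Each is the 100 bases before the start, 5′ to 3′ along the gene, with CHR and CCAAT matches on either strand in capitals (ATTGG and TTCAAA are the reverse strand). Ccnb1 lies at chr13:100786487-100786586 (minus strand), Cdk1 at chr10:69352913-69353012 (minus strand) and Top2a at chr11:99024190-99024289 (minus strand). Kif11 lies at chr19:37376282-37376381 (plus strand) and Cdc20 at chr4:118437344-118437443 (minus strand). Nuf2, whose level followed the set, at chr1:169531465-169531564 (minus strand), and Pttg1, whose level did not, at chr11:43425982-43426081 (minus strand), are shown as windows without a match.
Ccnb1: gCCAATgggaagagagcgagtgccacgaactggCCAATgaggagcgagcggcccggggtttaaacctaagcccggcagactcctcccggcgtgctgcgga
Cdk1: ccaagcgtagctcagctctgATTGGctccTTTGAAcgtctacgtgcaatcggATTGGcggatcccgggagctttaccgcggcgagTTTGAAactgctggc
Top2a: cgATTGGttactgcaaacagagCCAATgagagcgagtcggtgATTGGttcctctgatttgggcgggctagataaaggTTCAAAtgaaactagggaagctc
Kif11: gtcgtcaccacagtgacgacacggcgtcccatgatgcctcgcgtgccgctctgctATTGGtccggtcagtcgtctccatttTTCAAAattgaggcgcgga
Cdc20: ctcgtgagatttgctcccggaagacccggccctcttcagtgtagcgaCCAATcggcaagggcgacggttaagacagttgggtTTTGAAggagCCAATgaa
Nuf2: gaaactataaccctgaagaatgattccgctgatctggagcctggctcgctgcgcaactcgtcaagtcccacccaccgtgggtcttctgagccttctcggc
Pttg1: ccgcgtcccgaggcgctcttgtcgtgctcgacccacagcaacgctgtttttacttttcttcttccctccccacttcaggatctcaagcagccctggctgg

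Counted over the 250 bases before the start on both strands, CCAAT was found in 28 of the 37 promoters (75.7%), beside 33.8% of all 32851 promoters of the table and 35.2% of those of tested genes outside the set. A CHR was found in 13 (35.1%), beside 17.1% and 12.6%. Both occurred together in 12 (32.4%), beside 6.02% and 4.76%, and at least 2 CCAAT in 16 (43.2%), beside 10.1% and 12.5%. The E2F letters were found in 2 (5.41%), beside 1.86% and 3.1%. Within the 250 bases Top2a held 6 CCAAT and 4 CHR matches and Cdk1 held 3 and 2, and 1 pair of matches overlapped over the set.

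By role, CCAAT was found in all 6 promoters of the mitotic cyclins and CDK1 group and in all 6 of the mitotic kinases. A CHR was found in 3 of the first and 1 of the second, and in 0 of the 7 kinetochore promoters, of which 4 held CCAAT. Among promoters of genes with r of at least 0.9 with the set, 40.7% of 27 held a CHR and 77.8% a CCAAT, and among the rest 20.0% and 70.0% of 10. A match is a match of letters only. Nuf2, with no match in its 250 bases, had r of 0.992 with the set, and Cdk1, with both elements, 0.946.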

How the data were processed

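RNA of 8 macrophage cultures (4 mice, 2 siRNA conditions) was hybridised to 1-colour Agilent arrays. The deposited scanner files hold linear intensity per spot from Agilent Feature Extraction 10.7.3.1 (protocol GE1_107_Sep09, design 028005), background-subtracted and not normalized between arrays, per the file headers. The deposited value table is in log2 by a method that no source used here states, and served as an alternative.

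Control spots and outlier spots were left out. Values are log2 processed signal minus the array's 75th percentile. A probe was kept where 4 or more of the 8 arrays had it well above background (26820 of 55681), and a gene was its brightest probe. The comparison of groups used eBayes after lmFit in limma 3.58.1 (R 4.3.3), two-sided. P-values were adjusted over 19281 genes by Benjamini-Hochberg at a threshold of 0.05, and the code was tested on simulated data. Correlations used the 19243 genes without a missing value.

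Replicate numbers were taken as mice because the design text gives both conditions on each of 4 mice. After group means were subtracted, same-numbered arrays correlated at 0.618, 0.155, 0.580 and 0.285. The control array of mouse 2 correlated at 0.206 with a Y RNA siRNA array of another mouse, so the data alone do not settle its pairing. P-values measure the spread between these cultures. All arrays lay on 1 slide, with mice 1 and 2 in row 1 and mice 3 and 4 in row 2. Slide columns 1 and 3 held the Y RNA siRNA and columns 2 and 4 the control, and the 2 cannot be told apart.

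Every member may be named. Values on each array are given for the core cyclins, CDK1, E2F genes, Foxm1, Mki67 and Top2a, the 3 genes of each role with the smallest p, and the genes at background. Outside the set, the 8 most and 4 least similar genes and 3 genes per further list are named, other genes after their values were seen. The genes and lists were chosen with earlier results of these data known.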

Additional observations from a re-analysis of the deposited data

Results flagged for a closer look

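In the Y RNA siRNA group, the array of mouse 3 stood far above the other 3 for 8 of the 42 genes. The level there was 3.78 for Anln, 5.98 for Birc5, 1.75 for Bub1, 0.79 for Cdk2, 3.91 for Kif20a, 3.83 for Mad2l1, 1.91 for Nuf2 and 4.29 for Plk1. The gap to the next array was between 0.844 and 0.941 of the range of the group, above Dixon's 95% critical value for 4 arrays. Both groups of the 42 genes made 84 such groups, and all 8 flags fell on this array. Chance flags about 1 in 20 groups, and since these genes rise and fall together over the arrays, the 8 flags are not 8 separate events. The control array of mouse 3 was also high for these genes, next to control mouse 2, and so did not stand apart in its own group.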

How the results depend on the processing

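Under every alternative run, 0 of the 42 genes were called for the siRNA. The replicate block is the mouse: with a random block 11 genes of the array were called, with a fixed block 0, and with array weights 1. The block changed no call of the 42 genes. Higher with the Y RNA siRNA were 36 of 42 as reported, 2 with array weights and 17 to 38 with 1 array or mouse left out. Other settings gave 33 to 38. For the mouse, 901 genes and 0 of the 42 were called as reported, 3311 and 7 with normexp, 1856 and 1 in the deposited values, 173 genes with no filter on dim probes, and 2 to 1215 genes and 0 to 10 of the 42 with a mouse left out. The cause of these differences was not tested. The mean difference in mouse 3 (0.05) was 0.0323 with quantile normalization and 0.088 with median centring, which moves the median of all genes by 0.03. The mean pairwise r stayed between 0.630 and 0.790. The difference of Cenpf was -0.23 with normexp and -0.28 in the deposited values. Ccnd2, Cenpf and the second Cdk1 probe are dim. The 95% intervals of Ccnd1 and Ccne1 include a 2-fold change without the replicate block and exclude it with a fixed one, and that of Cenpf includes it in both.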
